A study of Mus musculus with 4 samples.

Results

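The 8 genes Pax4, Pax6, Isl1, Hhex, Pdx1, Mnx1, Lmx1a and Etv1 encode transcription factors tied to hormone cell types of the pancreas and gut, and they were taken by name out of 32288 genes in the deposited count tables. All 8 were present in every table. The mice were Ptf1aCre-ERTM;ROSAYFP/+ animals on a CD-1 background in which tamoxifen, given before injury, switched on a yellow fluorescent protein (EYFP) in cells with an active Ptf1a promoter, which in the adult pancreas are acinar cells. Pancreatitis was then induced from 10 weeks of age with caerulein, a cholecystokinin analogue that overstimulates acinar cells, for 2 weeks in 2 mice and for 4 weeks in 2 mice, and EYFP+ pancreas cells were sorted and profiled by droplet RNA sequencing. All groups carried the same alleles, tamoxifen and caerulein, so no uninjured control enters any comparison here. Each mouse was 1 library and 1 replicate, and numbers such as mouse 1 and mouse 2 only name the animals.

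The submitters' labels gave 1269 of the 2586 tuft and endocrine cells an endocrine name: EEC-Progenitor (Neurog3+) 391 cells, Epsilon (Ghrl+) 377, ECL (Tac1+) 217, Delta (Sst+) 144 and Ppy+ 140. The endocrine cells held a median of 11270 to 14668 unique molecular identifiers (UMIs, each standing for 1 captured RNA molecule) per mouse. Of 2585 barcodes in that table, 1 occurred in more than 1 library. Levels below are in CPM, the UMIs of a gene summed over the cells of a label in a mouse divided by all UMIs of those cells and multiplied by 1000000, and only labels with at least 20 cells in a mouse are given.

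Endocrine cells arise from progenitors that transiently express Neurog3, and homeodomain factors then divide them into types that each make a main hormone: somatostatin (Sst) in delta cells, ghrelin (Ghrl) in epsilon cells, pancreatic polypeptide (Ppy) in PP cells. Pax4 and Pax6 are paired-box factors, Isl1 and Lmx1a are LIM-homeodomain factors, Hhex, Pdx1 and Mnx1 are homeobox factors, and Etv1 is an ETS-family factor. Many homeodomain proteins bind DNA at a TAAT core. The 250 bases before an annotated start are printed for Ghrl and Ppy, which with Sst separate the cells in the tests below. They are also printed for Pax6 and Etv1, the members tested there that have a window outside annotated exons. For Sst, whose window is partly annotated exon, only 30 bases around each motif are given. The sequences are RefSeq's (build GRCm38.p6), 5' to 3' on the gene's strand, with TAAT or its reverse complement ATTA and the cyclic-AMP response element TGACGTCA in capitals.
Sst, around TAAT (chr16:23890923-23890952, minus strand): gattttgcgaggcTAATggtgcgtaaaagc
Sst, around the response element (chr16:23890874-23890903, minus strand): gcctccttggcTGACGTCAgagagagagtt
Ghrl (chr6:113719912-113720161, minus strand): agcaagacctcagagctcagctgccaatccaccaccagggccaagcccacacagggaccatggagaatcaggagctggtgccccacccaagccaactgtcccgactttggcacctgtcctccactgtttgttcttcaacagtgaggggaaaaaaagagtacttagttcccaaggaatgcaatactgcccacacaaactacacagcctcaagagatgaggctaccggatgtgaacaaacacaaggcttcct
Ppy (chr11:102101320-102101569, minus strand): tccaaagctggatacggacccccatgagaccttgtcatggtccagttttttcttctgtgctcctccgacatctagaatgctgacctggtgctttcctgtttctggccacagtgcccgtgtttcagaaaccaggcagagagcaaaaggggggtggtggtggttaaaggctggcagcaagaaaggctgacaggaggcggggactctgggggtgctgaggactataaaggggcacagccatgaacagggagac
Pax6 (chr2:105668646-105668895, plus strand): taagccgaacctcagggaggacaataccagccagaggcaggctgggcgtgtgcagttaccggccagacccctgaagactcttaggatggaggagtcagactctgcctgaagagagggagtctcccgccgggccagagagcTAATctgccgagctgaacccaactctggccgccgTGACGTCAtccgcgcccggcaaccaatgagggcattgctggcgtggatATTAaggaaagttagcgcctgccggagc
Etv1 (chr12:38779832-38780081, plus strand): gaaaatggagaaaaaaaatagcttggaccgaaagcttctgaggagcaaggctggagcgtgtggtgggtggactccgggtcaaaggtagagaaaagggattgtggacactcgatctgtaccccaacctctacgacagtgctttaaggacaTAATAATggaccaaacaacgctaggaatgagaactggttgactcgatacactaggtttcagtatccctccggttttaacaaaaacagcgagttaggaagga
In the Sst window TAAT starts at position -95 from the start and TGACGTCA at position -48. The printed Pax6 window held 2 TAAT cores and 1 TGACGTCA, the printed Etv1 window 2 overlapping TAAT cores, and the printed Ghrl and Ppy windows neither motif. Pax6, Etv1 and Ghrl have further annotated starts, and the windows printed are those that overlap no annotated exon or, for Ghrl, 1 of 2 such windows. The other Pax6 window held 2 TAAT cores and 0 TGACGTCA, the other Etv1 window 4 TAAT cores and 0 TGACGTCA, and the other Ghrl windows neither motif. Among the other tested members, the Isl1 window held 2 TAAT cores and 0 TGACGTCA, and the Hhex and Pdx1 windows held neither motif. Of 32851 promoter windows of this length, 54.9% held TAAT on either strand and 1.55% held TGACGTCA. These matches describe letters only.

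The 8 genes are protein coding and lie on different parts of the genome (GENCODE vM21, GRCm38). Hhex is at chr19:37434810-37440731, Isl1 at chr13:116298281-116309689, Pdx1 at chr5:147269959-147275848, Pax6 at chr2:105668900-105697364 and Etv1 at chr12:38779380-38870484. Pax4 is at chr6:28442334-28449353, Lmx1a at chr1:167689237-167848741 and Mnx1 at chr5:29473034-29478470.

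The labels were first set against their hormones. Sst in Delta cells was 107531 and 70377 CPM at 2 weeks and 68537 and 86571 CPM at 4 weeks, and Ghrl in Epsilon cells was 199258, 47148, 285043 and 163603 CPM in the same order. Neurog3 in EEC-Progenitor cells ranged from 2287 to 2630 CPM. Cells labelled Ppy+ carried Pyy, a related peptide YY gene, in 100.0% of cells of every mouse, whereas Ppy itself was found in 70.0% and 35% of them at 2 weeks and in 82.2% and 82.9% at 4 weeks. In ECL cells Tac1 ranged from 300 to 952 CPM, Tph1, the serotonin-synthesis enzyme, from 33.5 to 47.9 CPM, and Hdc, the histamine-synthesis enzyme that defines enterochromaffin-like cells, was at 8.33 CPM in 2-week mouse 1, at 0 CPM in 2-week mouse 2 and 4-week mouse 1 and at 1.78 CPM in 4-week mouse 2. The name ECL is therefore used here only as the submitters' label.

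The factors differed in the label where they were highest, as the plot of levels by label and mouse shows. Since the submitters gave the labels to these same cells and may have used these genes, the levels are a description without a test. Hhex, Isl1 and Pdx1 were highest in Delta cells, Etv1 in Ppy+ cells, Pax6 and Lmx1a in ECL cells and Pax4 in EEC-Progenitor cells, in 4 of 4 mice each. Mnx1 was highest in ECL cells in 3 mice and in Ppy+ cells in 1 mouse, 4-week mouse 1. There, 1 Ppy+ cell held 10 Mnx1 UMIs, so this exception rests mostly on 1 cell.

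**Figure D1:**
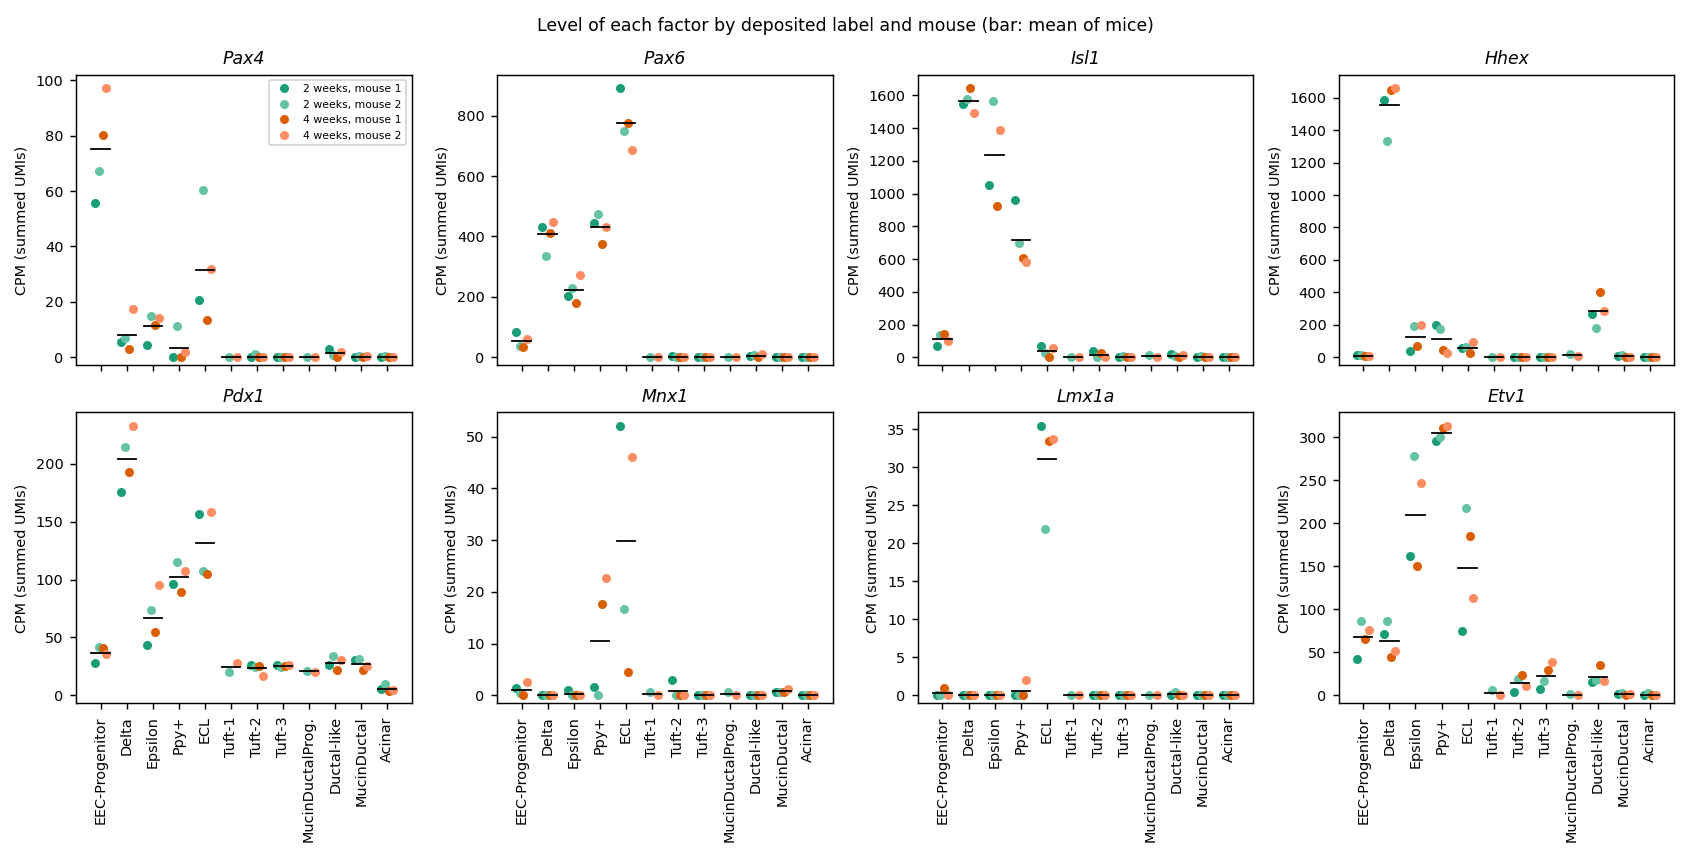
CPM (y axis, a scale of its own for each factor) against 12 deposited labels (x axis) for each factor, with 1 point per mouse (colour) and a bar at the mean of the mice, for labels with at least 20 cells in a mouse. The Hhex points of Delta cells (1336 to 1659 CPM) sit above every other label, Lmx1a is at 21.9 to 35.4 CPM in ECL cells and at 2.06 CPM or less elsewhere, and Isl1 is shared by Delta, Epsilon and Ppy+ cells.

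Hhex, a homeobox factor needed to maintain delta cells, was at 1587 and 1336 CPM in Delta cells of the 2-week mice and at 1645 and 1659 CPM in those of the 4-week mice. It was found in 38 of 38, 45 of 45, 32 of 32 and 28 of 29 cells. The next label, Ductal-like (139 cells of the EYFP+ table), had 265, 181, 402 and 285 CPM, below all Delta values. Epsilon cells followed at 126 ± 82.3 CPM (SD, n = 4), Ppy+ cells at 112 ± 86.7 and ECL cells at 59.2 ± 27.9, and the ranges of these neighbours overlapped. The Ductal-like cells had median depths of 8889 to 38505.5 UMIs, and after thinning to 5000 UMIs a mean of 71.2% of them held Hhex. As a measure of free RNA, Hhex was at 5.42 CPM and in 1.13% of 531 unlabelled T cells, which had a median of 3530 UMIs per cell. These T cells, like the unlabelled fibroblasts below, were chosen to hold no UMI of Epcam, an epithelial gene, or Chga, an endocrine gene. This can leave out cells with free RNA, so levels in them may understate the background.

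Isl1, required for maturation of several islet hormone cells, was at 1550, 1578, 1645 and 1493 CPM in Delta cells (2-week mice first), at 1052, 1569, 924 and 1388 CPM in Epsilon cells and at 963, 699, 610 and 585 CPM in Ppy+ cells. The Delta and Epsilon ranges overlapped, as did the Epsilon and Ppy+ ranges. All 3 labels stood apart from EEC-Progenitor cells, at 112 ± 33.8 CPM (SD, n = 4), and from ECL cells, at 37.7 ± 30.5. No Isl1 UMI was found in the 46 ECL cells of 4-week mouse 1, which allows a level of up to 6.69 CPM (3 UMIs). The unlabelled T cells were defined by UMIs of at least 2 T cell receptor complex genes and none of Epcam or Chga. Isl1 was at 2.96 CPM and in 0.377% of them, but in 743 unlabelled fibroblasts it was at 19.1 CPM and in 10.4% of cells.

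Pdx1, a pancreas-forming homeobox factor that activates the insulin and somatostatin genes, was at 175 and 215 CPM in Delta cells at 2 weeks and at 193 and 233 CPM at 4 weeks. These values lay above every ECL value (105 to 158 CPM). ECL, Ppy+ (89.4 to 115 CPM) and Epsilon cells (43.5 to 95.5 CPM) formed a run of overlapping neighbours. Outside endocrine cells Pdx1 was at 27.2 ± 4.65 CPM (SD, n = 4) in MucinDuctal cells and at 25.5 ± 0.611 CPM in Tuft-3 cells, against 1.48 CPM in the unlabelled T cells.

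Pax6, which activates many hormone genes, was at 892 and 751 CPM in ECL cells of the 2-week mice and at 776 and 685 CPM in those of the 4-week mice, apart from all other labels. Ppy+ cells (375 to 473 CPM) and Delta cells (336 to 449 CPM) overlapped, and Epsilon cells were lower than both (181 to 274 CPM). The share of cells with a Pax6 UMI was 96.8% ± 2.68 in ECL cells but 42.5% ± 6.53 in Epsilon cells (SD, n = 4 mice). As a measure of free RNA, Pax6 was at 3.45 CPM and in 0.942% of the unlabelled T cells, and in 0.538% of 743 unlabelled fibroblasts, whose median depth was 7075 UMIs. Pax6 overlaps the antisense gene Pax6os1, and Pdx1 overlaps Plut on the other strand, so their levels rest on strand. The library protocol keeps the strand, and Cell Ranger, named in the submitters' processing notes, counts sense reads by default, but the setting used is not given in the sources used here.

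Etv1, a factor studied mostly in neurons and gastrointestinal pacemaker cells, was at 296 and 301 CPM in Ppy+ cells at 2 weeks and at 311 and 313 CPM at 4 weeks. Epsilon cells came next at 163, 278, 151 and 246 CPM, below the Ppy+ cells in each mouse. ECL cells ranged from 75.0 to 218 CPM, overlapping Epsilon cells, and Delta cells from 44.4 to 85.8 CPM. Unlabelled fibroblasts, at a median of 7075 UMIs, held 27.8 CPM of Etv1.

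Pax4, which favours beta and delta over alpha cells in development, was at 55.8 and 67.4 CPM in EEC-Progenitor cells at 2 weeks and at 80.4 and 97.2 CPM at 4 weeks. ECL cells were second at 20.8, 60.5, 13.4 and 32.0 CPM, so that the ranges overlapped through 2-week mouse 2. In the other endocrine labels the mean was 11.3 CPM or less. The submitters' type table put 57 of the 391 progenitor cells, with 0 Pax4 UMIs, in a type shared with tuft cells, so the Pax4-positive cells were set against others within its EEC type only. There, the 113 progenitor cells with a Pax4 UMI had more Neurog3 than the 220 without in 4 of 4 mice (2834 to 3328 against 2491 to 2696 CPM), and also more Pax6 (106 to 321 against 0 to 11.7 CPM) and Etv1 (83.2 to 152 against 34.3 to 78.9 CPM). Isl1 was higher in the Pax4-positive cells in 2 mice and lower in 2 mice. The Pax4-positive cells were also deeper in each mouse (medians of 11900 to 15461 against 10788 to 13810.5 UMIs), and the part of depth in these differences was not tested. This split was chosen after the values were seen.

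Lmx1a, which acts in serotonin-producing gut cells, and Mnx1, a motor neuron and beta cell factor, were sparse. Lmx1a was at 35.4 and 21.9 CPM in ECL cells at 2 weeks and at 33.5 and 33.7 CPM at 4 weeks, with UMIs in 8 of 43, 12 of 71, 11 of 46 and 14 of 57 cells. Delta and Epsilon cells held 0 Lmx1a UMIs, and EEC-Progenitor and Ppy+ cells 1 UMI each. Mnx1 varied more between mice, at 52.1, 16.7, 4.46 and 46.2 CPM in ECL cells and at 1.69, 0, 17.6 and 22.7 CPM in Ppy+ cells, and the ranges overlapped. The 17.6 CPM of 4-week mouse 1 came mostly from 1 cell with 10 UMIs. Neither Pax4, Mnx1 nor Etv1 had a UMI in the 531 unlabelled T cells, and Lmx1a had none there and UMIs in 3 of 743 unlabelled fibroblasts.

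Because cells differ in depth, shares of positive cells were also given after thinning every cell to 5000 UMIs, which left out 61 of the 1269 endocrine cells. Hhex was then found in 97.7% of Delta cells against 15.8% of Epsilon and of Ppy+ cells, and Isl1 in 97.4%, 90.8%, 85.0% and 8.78% of Delta, Epsilon, Ppy+ and ECL cells (means of 4 mice). For Pax4 the thinned share was 20.0% in EEC-Progenitor cells against 28.6% unthinned, and for Lmx1a 12.5% in ECL cells against 21.0%.

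**Figure D2:**
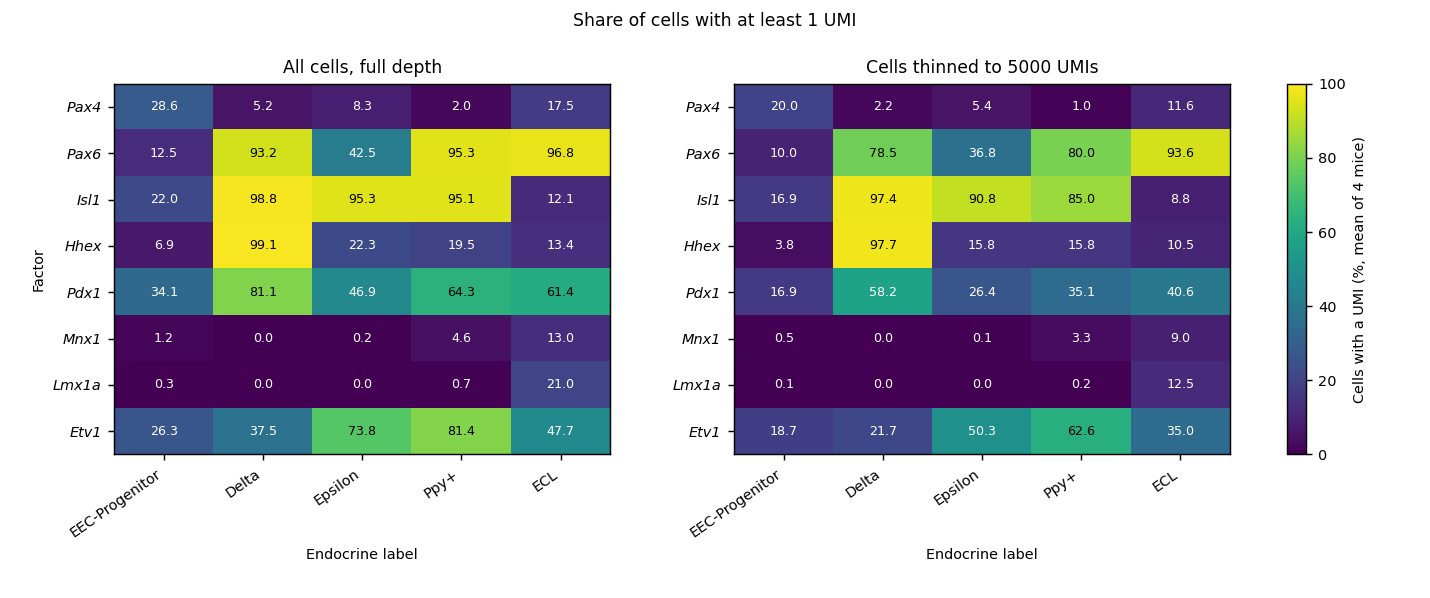
Share of cells with at least 1 UMI (colour and printed value, %, mean of 4 mice) for the 8 factors (rows) in the 5 endocrine labels (columns), at full depth on the left and thinned to 5000 UMIs on the right. Isl1 is near or above 85% in 3 labels in both panels and Hhex only in Delta cells, while Pax6 is found in 42.5% of Epsilon cells at full depth.

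A second grouping, on hormone UMIs alone, allowed a test. Among 1208 cells that the submitters' type table calls EEC, a cell was assigned to the Sst, Ghrl or Ppy gate when exactly that hormone reached 1% of its UMIs. This gave 100 Sst, 313 Ghrl and 62 Ppy cells, and 15, 86 and 9 cells had these hormones near the gate, between 0.5% and 2% of UMIs. The Sst cells were all labelled Delta and the Ppy cells all Ppy+, but 38 Ghrl-gated cells carried the label Ppy+ and 5 the label Delta. Counts were summed per mouse and gate, and each gate was compared with the mean of the other gates with edgeR's quasi-likelihood test, with the mouse as a block and Benjamini-Hochberg adjustment over 6889 genes. At least 10 cells were required, which the Ppy gate reached only in the 4-week mice (28 and 22 cells), so every Ppy value below rests on 2 mice and on 4 weeks of injury. When 4-week mouse 1 or 2 is left out below, the Ppy gate is 1 library, which is assumed to vary like those of the other gates. Pax4, Mnx1 and Lmx1a were too low to be tested.

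In Sst-gated cells 3 of the 5 tested factors were higher and 1 was lower, where 5.5% of all genes were called higher, 7.8% lower and 13.3% either way. Hhex was at 1726 and 1465 CPM at 2 weeks and at 1740 and 1786 CPM at 4 weeks, against 35.8 to 96.5 CPM in Ghrl-gated and 8.76 and 40.5 CPM in Ppy-gated cells, with no overlap. Its log2 fold change was 5.02 (SE 0.45, edgeR adjusted p = 0.0046). Pdx1, at 168 to 263 CPM, was also above all Ghrl-gated (42.0 to 53.0 CPM) and Ppy-gated values (84.7 and 90.3 CPM), with a log2 fold change of 1.36 (SE 0.16, edgeR adjusted p = 1.1e-09). Isl1 was higher by 0.77 (SE 0.09, edgeR adjusted p = 1.1e-06), although its 1363 to 1652 CPM overlapped the 905 to 1410 CPM of Ghrl-gated cells. Etv1 fell by 2.43 on the log2 scale (SE 0.18, edgeR adjusted p = 1.1e-13), from 161 to 318 CPM in Ghrl-gated and 201 and 252 CPM in Ppy-gated cells to 29.0 to 71.6 CPM. Pax6 did not pass (log2 fold change 0.13, SE 0.11, edgeR adjusted p = 0.54). With Pyy counted with Ppy in the gate, which lets all 4 mice enter all gates, the Isl1 call was not made (log2 fold change 0.52, edgeR adjusted p = 0.089).

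In Ghrl-gated cells 2 of 5 tested factors were higher and 2 lower, beside 8.45% of all genes called higher, 7.65% lower and 16.1% either way. Etv1 was higher by 0.90 on the log2 scale (SE 0.14, edgeR adjusted p = 2.5e-06) and Isl1 by 0.43 (SE 0.09, edgeR adjusted p = 0.0014), each against the mean of the other gates. Etv1, at 161 to 318 CPM, was above the Sst-gated range (29.0 to 71.6 CPM) but overlapped the Ppy-gated range (201 to 252 CPM). Isl1, at 905 to 1410 CPM, was above the Ppy-gated range (405 to 461 CPM) but had a lower mean than Sst-gated cells (1179 against 1566 CPM). Pdx1 fell by 1.54 (SE 0.17, edgeR adjusted p = 2.3e-11) and Pax6 by 0.59 (SE 0.11, edgeR adjusted p = 1.7e-05), Pax6 being at 205 to 306 CPM against 320 to 458 CPM in Sst-gated cells. Hhex was lower by a value that did not pass (log2 fold change -1.59, SE 0.69, edgeR adjusted p = 0.25), and the fold change ranged from -2.30 to -0.58 with a mouse left out. The Isl1 call was not made by DESeq2 (adjusted p = 0.14) nor with the deposited labels in place of the gates (edgeR adjusted p = 0.27). With Pyy counted with Ppy, neither Isl1 (edgeR adjusted p = 0.37) nor Etv1 (log2 fold change 0.85, edgeR adjusted p = 0.069) passed, and Hhex did (log2 fold change -3.52, edgeR adjusted p = 0.0052).

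In Ppy-gated cells 2 of 5 tested factors were higher and 1 lower, beside 7.3% of all genes called higher, 4.12% lower and 11.4% either way. Etv1 was higher by 1.53 (SE 0.19, edgeR adjusted p = 5.9e-08) than the mean of the other gates. At 201 and 252 CPM it was far above the 29.0 and 41.7 CPM of Sst-gated cells in the same mice, but above Ghrl-gated cells in 1 mouse (161 CPM) and below them in the other (282 CPM). With 14 hormone genes out of the total, Etv1 was at 308 and 365 CPM against 231 and 363 CPM in Ghrl-gated cells, so below them in neither mouse. Isl1 fell by 1.19 (SE 0.13, edgeR adjusted p = 1.1e-07), to 461 and 405 CPM, below every Sst-gated and Ghrl-gated value. Pax6 was called higher by edgeR (log2 fold change 0.47, SE 0.14, adjusted p = 0.020), again against the mean of the other gates. It was at 274 and 386 CPM, against 458 and 413 CPM in Sst-gated and 205 and 270 CPM in Ghrl-gated cells of the same mice. With 14 hormone genes out of the total it was at 419 and 558 CPM, against 514 and 467 CPM and 294 and 347 CPM. On both scales it lay above the Ghrl-gated level in both mice, whereas it was below the Sst-gated level in both mice by CPM and in 1 mouse with hormone genes left out. The Pax6 call was not made by DESeq2 (adjusted p = 0.43), with a gate at 0.5% (edgeR adjusted p = 0.17), without the low-count filter (edgeR adjusted p = 0.066) or without 4-week mouse 2, where 1 Ppy library of 28 cells is left (edgeR adjusted p = 0.53). Hhex, found in 3 of 28 and 4 of 22 cells, was lower without passing (log2 fold change -3.43, SE 0.81, edgeR adjusted p = 0.083), and DESeq2 called it (adjusted p = 0.00027), as did edgeR without 4-week mouse 2 (log2 fold change -5.08, adjusted p = 1.4e-31), a value that rests on 1 Ppy library with 3 Hhex UMIs. Without 4-week mouse 1, again with 1 Ppy library, edgeR gave -2.39 (adjusted p = 0.15). Pdx1 did not pass (log2 fold change 0.18, SE 0.23, edgeR adjusted p = 0.72), but did with Pyy counted with Ppy (log2 fold change 0.70, edgeR adjusted p = 0.0070).

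**Figure D3:**
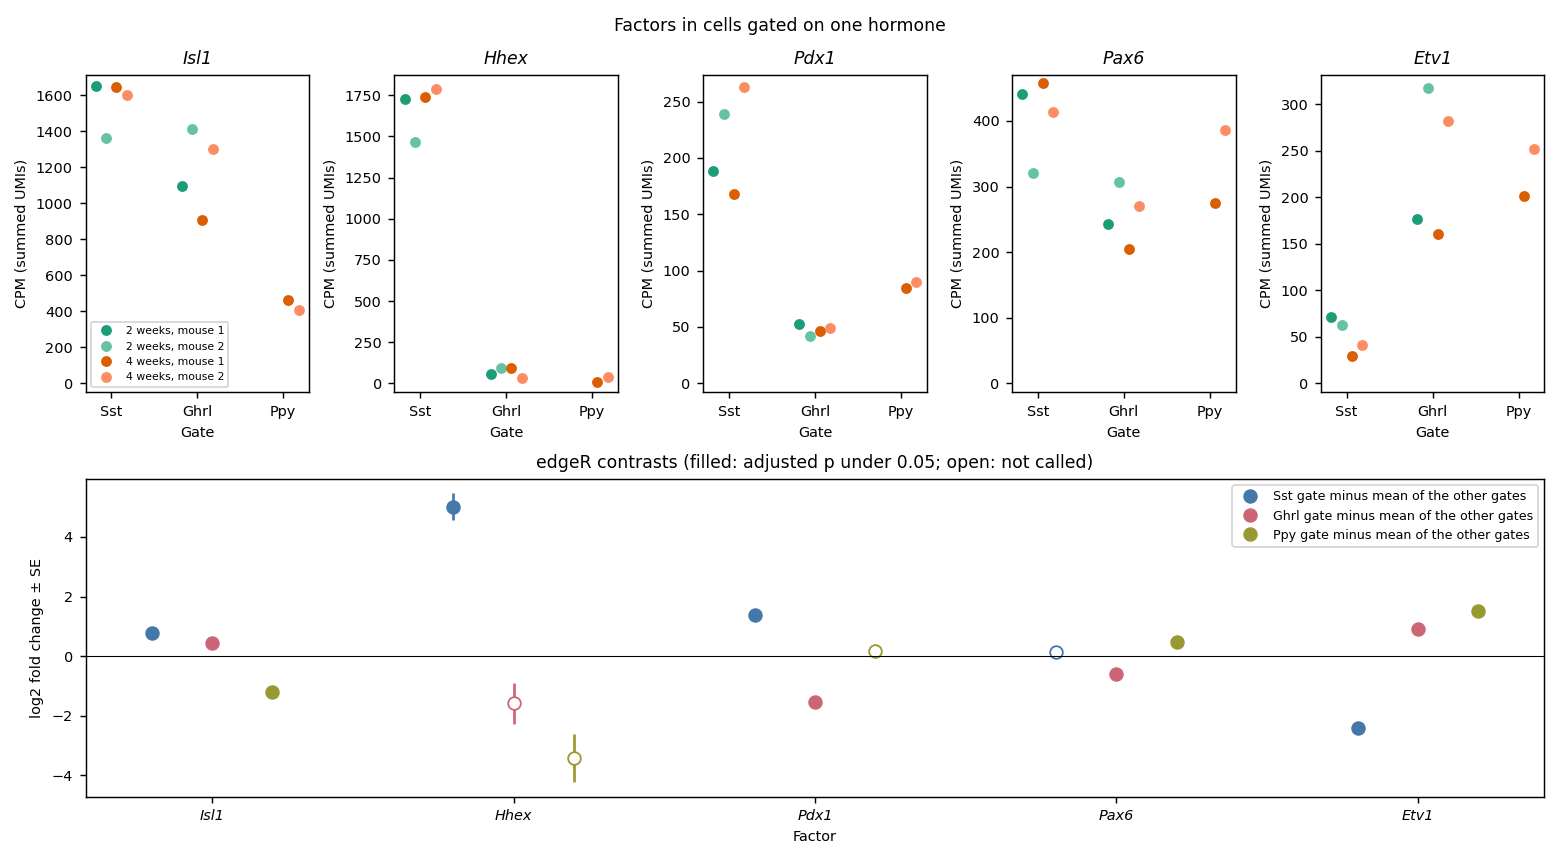
Top row: CPM of 5 factors (y axis) in cells gated on Sst, Ghrl or Ppy (x axis), with 1 point per mouse holding at least 10 gated cells. Bottom: log2 fold change with its SE for each gate against the mean of the other gates, filled where the edgeR adjusted p is under 0.05. Hhex stands apart in the Sst gate at 5.02, and Etv1 is low there at -2.43.

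Of 52 other endocrine transcription factors, 30 could be tested. Of these, 50.0%, 40.0% and 53.3% were called in the Sst, Ghrl and Ppy gates, against 13.3%, 16.1% and 11.4% of all genes. In the Sst gate 10 were higher and 5 lower (median log2 fold change 0.30, against 0.025 over all genes), with Sox9, a duct and progenitor factor, at 2.41 (SE 0.19, edgeR adjusted p = 3.8e-15) and Neurod1, a broad endocrine factor, at -1.05 (SE 0.12, edgeR adjusted p = 4.2e-10). In the Ghrl gate 9 were higher and 3 lower (median 0.29, against 0.0015 over all genes), with Nkx2-2, another broad endocrine factor, at 2.32 (SE 0.17, edgeR adjusted p = 1.6e-17) and Neurod1 at 0.82 (SE 0.10, edgeR adjusted p = 4.2e-09). In the Ppy gate 4 were higher and 12 lower (median -0.53, against -0.013 over all genes), with Sox4, a progenitor factor, at -1.55 (SE 0.16, edgeR adjusted p = 4.7e-11) and Sox9 at -2.01 (SE 0.32, edgeR adjusted p = 3.3e-06). These 3 contrasts share cells and mice and are not independent of each other.

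Cells with more than 1 hormone at the gate were not tested. The 23 Sst and Ghrl cells were all labelled Delta and held 1288 CPM of Hhex (exact 95% Poisson interval 1160 to 1426, counting error only) with UMIs in 23 of 23 cells, beside 1735 CPM of Isl1. Their median of 11666 UMIs per cell compares with 11368.5 in Sst-gated and 15328 in Ghrl-gated cells. No doublet caller was run, so doublets cannot be told apart from cells with both hormones. By mouse, Hhex in the Sst and Ghrl cells was at 1239, 1019, 2566 and 1485 CPM (2-week mice first), against 1726, 1465, 1740 and 1786 CPM in Sst-gated cells. It was thus lower in 3 mice and higher in 4-week mouse 1, which gave 2 of the 23 cells. Pdx1 was at 110, 160, 48.4 and 109 CPM against 189, 239, 168 and 263 CPM, the value of 4-week mouse 1 being 1 UMI. In the 15 Ghrl and Ppy cells, all labelled Ppy+, Hhex was in 1 cell and Isl1 in 14 cells.

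Epsilon cells were split by Pax6. In 4 of 4 mice, cells with a Pax6 UMI had more Isl1 (1675 to 2028 CPM) than cells without (487 to 1172 CPM), more Hhex (99.3 to 396 against 6.61 to 30.6 CPM) and more Pdx1 (69.7 to 161 against 22.6 to 62.9 CPM). Etv1 followed in 3 mice and was lower in the Pax6-positive cells of 2-week mouse 2. Ghrl itself was lower in Pax6-positive cells in 3 mice (123161 against 243309, 160067 against 344076 and 73631 against 251093 CPM) and higher in 2-week mouse 2 (56790 against 37989 CPM). Since a hormone at this level takes up a large part of a cell's UMIs, Isl1 was also computed with 14 hormone genes out of the total, and stayed higher in Pax6-positive cells in each mouse (1996 to 2315 against 644 to 1218 CPM). Median depth was 15788, 13193.5, 11981.5 and 11588 UMIs in Pax6-positive cells and 19269.5, 11788, 13383.5 and 10408 in the others. This split was chosen after the values were seen.

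Within the ECL label the sparse factors were set against the hormones its cells held. Of its 217 cells, 34 had Gip or Gast, the genes of the gut hormones GIP and gastrin, at 1% of UMIs, 1 had insulin at that level (74149 UMIs, Ins2 at 412305 CPM), and 182 had none of these at that level. Lower amounts were found in part of the 182 cells, with Gip UMIs in 53 and Gast UMIs in 34 of them. Lmx1a was found in 45 of the 182 cells (24.7%, exact 95% interval 18.6 to 31.7), Pax4 in 43 and Mnx1 in 27. All 3 were found in 0 of the 34 Gip or Gast cells, which allows a share of cells with a UMI of up to 8.82% each (3 cells, exact 95% interval 0 to 10.3%), at a median depth of 10700.5 UMIs against 10490 in the 182 cells. Of the 43 Pax4 cells 27 came from 2-week mouse 2, which gave only 1 of the 34 cells. In the other 3 mice (2-week mouse 1, then the 4-week mice) the cells with neither hormone at 1% of UMIs held Pax4 in 4 of 29, 4 of 38 and 8 of 46, Mnx1 in 8, 2 and 11 and Lmx1a in 8, 11 and 14. The Gip or Gast cells of these mice held each in 0 of 14, 0 of 8 and 0 of 11. The Gip or Gast cells were few in each mouse, and the difference was not tested. Pax6 was at 777 CPM in the Gip or Gast cells and 789 CPM in the others, and Pdx1 at 119 and 132 CPM. Etv1 CPM was lower in the Gip or Gast cells of these 3 mice (13.1 against 104, 112 against 206 and 47.9 against 129 CPM), from 2, 11 and 5 UMIs. The single cell of 2-week mouse 2 is too shallow to show a direction. Etv1 UMIs were in 2 of 14 against 12 of 29 cells, 6 of 8 against 16 of 38 and 5 of 11 against 21 of 46. The share of positive cells was thus lower in 2-week mouse 1, higher in 4-week mouse 1 and nearly equal in 4-week mouse 2. Of the 182 cells, 17 held both Lmx1a and Mnx1, which is 37.8% of the Lmx1a cells and 63.0% of the Mnx1 cells. Tph1 was at 51.6 CPM in the 182 cells and at 2.78 CPM, from 1 UMI, in the 34. These classes too were set after the values were seen.

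Over the 9 labels of the tuft and endocrine table, the genes, among 8677 with at least 20 CPM in a label, whose mean level followed each factor most closely were recorded as a description (Pearson's r of log2(CPM + 1), labels as points, which share libraries, Tuft-1 and MucinDuctalProgenitor being measured in 2 mice only). Hhex was nearest to Zfp318 (r = 0.968), Rbpjl (0.963) and Arhgap29 (0.957). Isl1 was nearest to Mboat4 (0.963), the enzyme that acylates ghrelin, Ina (0.962) and Smim5 (0.961). Pax6 was nearest to Mapk8ip2 (0.998), Psd (0.994) and Unc5a (0.992), and genes near Pdx1 included Galnt11 and Prkacb (both 0.984). Etv1 was nearest to Qdpr (0.979), Scamp5 (0.973) and Cadps (0.968), and Pax4 to Cnot6l (0.990), Anks1 (0.982) and Miat (0.981). Mnx1 was nearest to Ucn3 (0.949), Otof (0.948) and Spcs1 (0.918). For Lmx1a the list was Ins2 (0.995), Adcy1 (0.991) and Tph1 (0.987), and the Ins2 entry rested on the 1 insulin cell noted above, since Ins2 was at 8.93 CPM in the 182 ECL cells.

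Comparing 4 with 2 weeks of caerulein within each label, edgeR's quasi-likelihood test called 1 factor in 1 label, Hhex in Ppy+ cells, among the 5 to 8 factors that could be tested per label. Few genes of any kind were called. In Ppy+ cells 0.0796% were higher and 0.0796% lower (0.159% either way), and in ECL cells 0.0272% and 0.0544% (0.0816%). In EEC-Progenitor cells 0.0113% were higher and 0.034% lower (0.0453%), and in Delta cells 0.0154% were higher and 0% lower. In Epsilon, Acinar and MucinDuctal cells edgeR called 0% in either direction and DESeq2 called 1, 15 and 40 genes. The unadjusted edgeR p was under 0.05 for 362 of 9498, 344 of 12343 and 726 of 13463 genes. These shares are near or below what that threshold gives with no effect. None of the 52 other factors was called in a label, where 26 to 37 of them could be tested.

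Hhex in Ppy+ cells was at 201 and 172 CPM at 2 weeks and at 47.9 and 28.9 CPM at 4 weeks, with no overlap. It fell by 2.08 on the log2 scale (SE 0.27, edgeR adjusted p = 0.0058). The UMIs came from few cells, as 11 of 40 and 5 of 20 cells had a Hhex UMI at 2 weeks and 5 of 45 and 5 of 35 at 4 weeks, and cells with at least 5 UMIs numbered 8 and 4, then 2 and 1. In the same cells Ppy moved from 33477 and 52071 CPM to 124661 and 102711 CPM, Gcg, the glucagon gene, from 0 in both 2-week mice to 6446 and 4443 CPM, and Ghrl from 33058 and 20321 to 21030 and 8069 CPM. Among Ppy+ cells with Ppy under 1% of UMIs (24 and 13 cells at 2 weeks, 12 and 11 at 4 weeks), Hhex was at 255 and 315 CPM against 119 and 6.73 CPM (log2 fold change -1.94, SE 0.94, edgeR adjusted p = 0.87). The call did not hold without robust estimation of the spread (edgeR adjusted p = 0.071), and held with cells left out that had Sst at the gate (log2 fold change -2.01, edgeR adjusted p = 0.0079). Of the 5 acinar markers in Ppy+ cells, 2 were lower in both 4-week mice (Cpa1 and Prss2, pancreatic enzymes) and the others overlapped. With 2 mice per time such separation is frequent by chance, and its share over all genes was not computed. The summed level of the 5 was 2999 and 3933 CPM at 2 weeks and 1797 and 1224 CPM at 4 weeks. Of the 3 genes listed as delta markers, Ghsr was at 0 in all mice and none differed without overlap. Their sum, 19826 and 12575 CPM, then 17381 and 21704 CPM, was nearly all Rbp4, which was higher in Ppy+ cells (mean 17675 CPM) than in Delta cells (7914 CPM) and so does not mark delta cells here. Sst itself was at 471 and 20.4 CPM at 2 weeks and at 3.19 and 293 CPM at 4 weeks. Of the 5 mucin and ductal markers, Muc5ac was at 0 and only Tff2 differed without overlap, being higher at 4 weeks, with sums of 292, 894, 769 and 993 CPM. The part of hormone content and of acinar RNA in the Hhex fall was not tested. Against the mean time effect of Delta and Epsilon cells, the Hhex effect in Ppy+ cells differed by -2.39 on the log2 scale (SE 1.10, edgeR adjusted p = 0.97), in a test that called 0.0118% of genes lower, 0% higher and 0.0118% either way.

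The time effects of the other factors did not pass. Pax4 in EEC-Progenitor cells gave a log2 fold change of 0.46 (SE 0.20, unadjusted p = 0.034, edgeR adjusted p = 0.91), with all 4-week values above the 2-week values. Hhex in the same cells, at 16.2, 14.9, 5.95 and 5.11 CPM, gave -1.50 (SE 0.48, edgeR adjusted p = 0.72). Etv1 in Delta cells gave -0.69 (SE 0.31, edgeR adjusted p = 0.78) and Pdx1 in Epsilon cells 0.58 (SE 0.24, edgeR adjusted p = 0.999). For Isl1 in Delta cells the log2 fold change was 0.019 (SE 0.14, edgeR adjusted p = 0.995). In ECL cells all 8 factors could be tested and none was called, with Lmx1a at 0.29 (SE 0.37) and Mnx1 at -0.19 (SE 1.11).

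**Figure D4:**
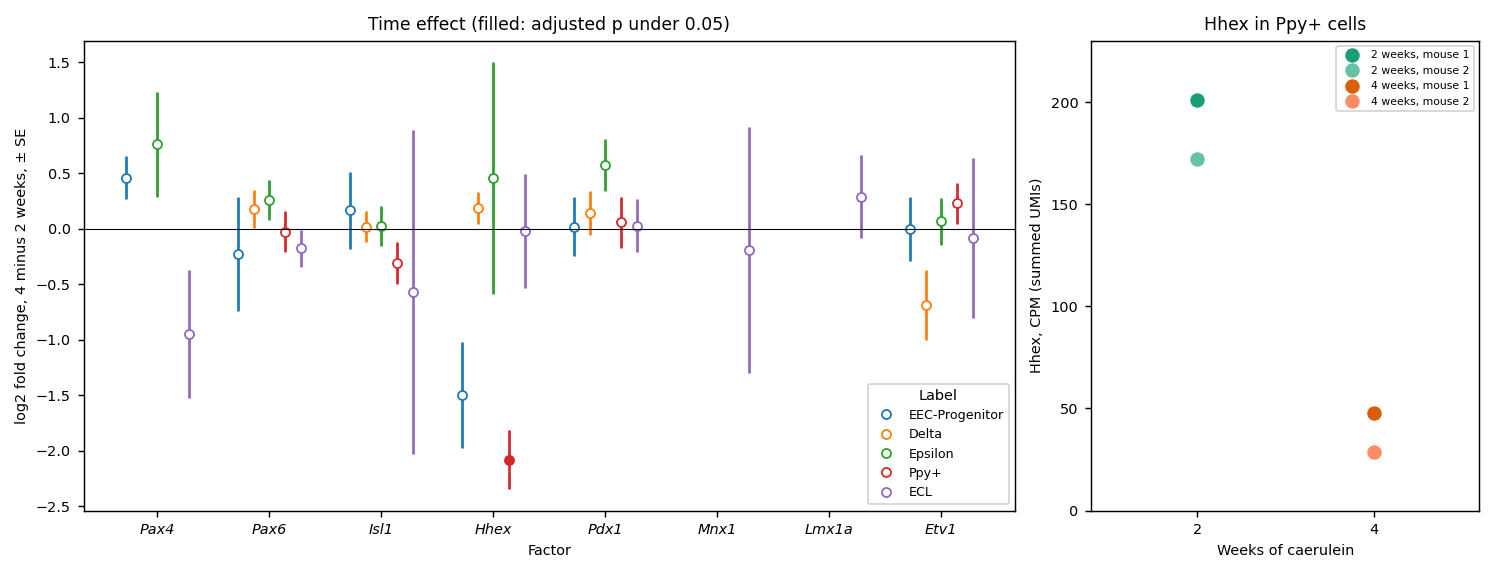
Left: log2 fold change of 4 against 2 weeks with its SE (y axis) for each factor (x axis) and endocrine label (colour), filled where the edgeR adjusted p is under 0.05, which is the case only for Hhex in Ppy+ cells at -2.08. Right: Hhex CPM in Ppy+ cells by weeks of caerulein, 1 point per mouse, with the 2-week mice at 201 and 172 and the 4-week mice at 47.9 and 28.9.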

How the data were processed

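Droplet single-cell RNA sequencing (10x 3' v3.1) of sorted EYFP+ pancreas cells from 4 mice gave the deposited count tables, raw UMI counts per gene and cell. Per the submitters' processing notes, Cell Ranger 4.0.0, Seurat 3.2.3 and mm10 were used. How counts, cell filters and labels were made is not given in the sources used here beyond that, and no doublet caller was run. Of 21068 barcodes in the merged table, 67 occurred in more than 1 library.

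Counts were summed per mouse and label or hormone gate and tested with edgeR 4.0.16 (TMM, filterByExpr, robust quasi-likelihood, Benjamini-Hochberg over all genes tested, threshold 0.05), which was tested on simulated data. Gate fits had the mouse as a block, since gates came from the same animals, and time fits compared mice. SE beside an edgeR fold change is its absolute log2 value divided by the square root of the test's F statistic. The test itself reports no SE. DESeq2 1.42.0 and other settings were alternatives. Hormone gates were 1% of UMIs, counting intervals exact at 95%. A count of 0 was read as a limit of 3 counts. Intervals and limits cover counting error only. Each mouse was a replicate, and endocrine cells held 3762907 to 5550064 UMIs per mouse. The genes named were the 8 factors, for each the 3 genes with the highest correlation over labels, 14 hormones and up to 4 of 52 other factors per comparison by smallest p, and others with markers. Members and lists were chosen with earlier results of these data known. No promoter was matched for Pax4. Some genes that this rule names are not reported here.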

Additional observations from a re-analysis of the deposited data

Results flagged for a closer look

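Hhex in both 4-week mice was above the 2-week mice in Delta cells (means of 1461 and 1652 CPM) and below them in Ppy+ cells (186 and 38.4 CPM). Etv1 went the other way, also without overlap, from 78.4 to 48.1 CPM in Delta cells and from 298 to 312 CPM in Ppy+ cells. With 2 mice per time, values often separate by chance. Pax4 in EEC-Progenitor cells and Pax6 and Isl1 in Ppy+ cells, for example, also separated. Only the Hhex fall in Ppy+ cells passed edgeR's quasi-likelihood test. Hhex in Delta cells gave a log2 fold change of 0.19 (edgeR adjusted p = 0.90), Etv1 in Delta cells -0.69 (0.78) and Etv1 in Ppy+ cells 0.23 (0.89). The difference between Ppy+ and the mean of Delta and Epsilon cells passed neither for Hhex (adjusted p = 0.97) nor for Etv1 (log2 difference 0.56, SE 0.22, adjusted p = 0.92), and the difference from Delta cells alone was not tested.

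Hhex was also present in cells outside the submitters' labels. In 34 unlabelled cells with Chga and Sst at the gate, it was at 705 CPM (exact 95% Poisson interval 627 to 790), with UMIs in 28 cells and values of 743, 441, 1389 and 826 CPM by mouse, from 5 to 14 cells each. The unlabelled T cells had 5.42 CPM. Of these 34 cells, 6 had an EYFP UMI.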

How the results depend on the processing

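Of 245 recomputed fold changes of the factors, 226 kept their direction and side of the threshold, 11 lost a call, 6 gained one and 2 reversed. The reversals were of Pax6 in the Sst gate (log2 fold change 0.13), which was -0.030 without 4-week mouse 1 and -0.073 with Pyy counted with Ppy, an alternative chosen after seeing the data, and it ranged from -0.030 to 0.26 with a mouse left out. Without the mouse block, 805, 817 and 799 genes were called in the Sst, Ghrl and Ppy gates, against 916, 1109 and 787 with it, and among the factors Hhex in the Ppy gate gained a call (log2 fold change -3.36, adjusted p = 0.013). No paired analysis was possible because replicate numbers in the time comparison are accession order and name different mice. DESeq2 called 318, 409 and 311 genes in the 3 gates, and the deposited labels in place of gates 1718 in the Ghrl and 1383 in the Ppy contrast. Leaving out a mouse gave 572 to 864, 698 to 1027 and 453 to 797 genes, and without 4-week mouse 1 or 2 (464 and 453 genes in the Ppy gate) the Ppy gate was 1 library.

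For time, genes called by DESeq2 numbered 7 in EEC-Progenitor, 2 in Delta, 1 in Epsilon, 8 in Ppy+, 3 in ECL, 15 in Acinar and 40 in MucinDuctal cells. In Ppy+ cells DESeq2 gave no adjusted p for 4507 of 6283 genes. With no gene filter edgeR called 50, 24, 22, 60, 54, 286 and 6 genes in EEC-Progenitor, Delta, Epsilon, Ppy+, ECL, Acinar and MucinDuctal cells. Without robust fitting it called 1 in Ppy+ and 0 in ECL cells. With a mouse left out, the ranges in the same 7 labels were 12 to 195, 29 to 50, 0 to 204, 39 to 141, 6 to 155, 13 to 129 and 0 to 191, the lone mouse of an arm being assumed to vary like the others. Hhex in Ppy+ cells then ranged from -2.54 to -1.75, and Hhex in MucinDuctal cells was called without 2-week mouse 1 (-1.88, adjusted p = 0.035). The cause of these shifts was not tested.

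With the 14 hormone genes out of the total, mean levels were 1774 CPM for Isl1, 1763 CPM for Hhex and 231 CPM for Pdx1 in Delta cells and 398 CPM for Etv1 in Ppy+ cells, and the mean over cells of Etv1 CPM was 317. The other 51 of 56 recomputed levels moved by less than 1 SD. Pax4, Mnx1 and Lmx1a were too low in gated cells for the gate tests. Lmx1a had 0 UMIs in the Sst, Ghrl and Ppy gates, which in the Ghrl gate allows up to 1.51 to 4.20 CPM by mouse. Hhex in the Ppy gate rests on 3 and 13 UMIs, and each time on 2 mice.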

Other observations

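Unlabelled cells with Chga and a single hormone at the gate were sorted by the same gates as the labelled ones, with Ins and Gcg added: 34 Sst, 70 Ghrl, 27 Ppy, 2 insulin and 0 glucagon cells. Isl1 was at 764 CPM in the Sst cells, 379 CPM in the Ghrl cells and 133 CPM in the Ppy cells, and Hhex at 705, 8.61 and 18.9 CPM. In the Ppy cells all 4 Hhex UMIs came from the single cell of 2-week mouse 1 (65381 UMIs), and the 21 and 5 cells of the 4-week mice held 0. Isl1 in these 3 libraries was at 0, 89.9 and 415 CPM. Etv1, the factor highest in labelled Ppy+ cells, was at 33.2, 93.5 and 71.0 CPM, with exact 95% Poisson intervals for the Ghrl and Ppy cells of 73.6 to 117 and 39.7 to 117. Pax6 was at 233, 94.7 and 118 CPM. No Pax4 or Lmx1a UMI was found in any of these cells. Median depth was 7501 UMIs in the Sst, 2847 in the Ghrl and 2959 in the Ppy cells, but it differed widely between mice (1758.5 to 30710 UMIs in the Ghrl cells), and EYFP UMIs were in 6, 15 and 11 cells.

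Within Ppy+ cells, those with Ppy at the gate had less Isl1 than the rest in 4 of 4 mice (329 to 523 against 811 to 1261 CPM), less Etv1 (105 to 270 against 343 to 476 CPM), less Pax6 (300.1 to 384 against 493 to 559 CPM) and less Ghrl (1999 to 12965.5 against 21829 to 50941 CPM). Pyy was higher in the cells with Ppy at the gate in 4 of 4 mice, so not every other gene was lower. Ppy at the gate takes up part of a cell's UMIs, which leaves a smaller part for the rest. The levels here include the hormone genes in the total, and the part of hormone content in these differences was not tested. This split was made after the values were seen and has no test.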
